A study of Homo sapiens with 12 samples.

Results

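A set of 10 genes of the YAP/TEAD pathway were followed across 6 groups of human HEK-293T cells by RNA sequencing. They were chosen by name, with earlier results of these data known. They include the upstream genes LATS2, AMOTL2 and AJUBA and the coactivators YAP1 and WWTR1. The others are the DNA-binding factors TEAD1 and TEAD4 with their cofactor VGLL4, and the target genes ANKRD1 and AXL. These are 10 of the 60645 gene names counted, and all 10 passed the filter on low counts.

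HEK-293T is a transformed human embryonic kidney line, and every group here was made from a derivative in which ARID1A had been knocked out. ARID1A is a subunit of the BAF (SWI/SNF) chromatin remodelling complex. The knockout cells overexpressed either an empty vector (called no ARID1A below), wild-type ARID1A (WT), or ARID1A lacking the stretch named IDR1b (ΔIDR1b). Each of these 3 states also received either a second empty vector or EWS-FLI1, the fusion transcription factor of Ewing sarcoma. The protocol of every sample, also those titled with the empty vector, names the EWS-FLI1 plasmid at 2 µg with growth for a further 48 h. The groups here follow the sample titles, and FLI1 RNA went with the titles. Each group had 2 libraries, called repeats 1 and 2, and nothing in the labels says that the repeats were separate cultures, so p-values measure only the spread between these libraries. The labels name a single knockout line and do not say whether it was 1 clone. The stated question of the study is what IDR1b does in transcriptional regulation by EWS-FLI1.

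In the Hippo pathway a kinase cascade ends in LATS1 and LATS2, which phosphorylate YAP (YAP1) and its paralog TAZ (WWTR1) and keep them out of the nucleus. Unphosphorylated YAP and TAZ enter the nucleus and bind the TEAD factors, which carry the DNA contact, and switch on genes such as CCN1, CCN2 and ANKRD1. Some of those targets, LATS2 and AMOTL2 among them, feed back to restrain YAP. RNA levels do not report the phosphorylation or the location of YAP and TAZ. In bulk RNA, fewer cells that express a gene and less of its RNA per cell cannot be told apart.

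Library totals ran from 11702251 to 14445379 counts, and 3 counts, the limit that a count of 0 allows, came to 0.208 to 0.256 CPM (counts scaled to an equal library total). ARID1A RNA stood at 156 ± 12.1 CPM (SD, n = 2) with no ARID1A and the empty vector, 2056 ± 25.8 with WT and 2787 ± 130 with ΔIDR1b. ARID1A was thus higher with ΔIDR1b than with WT (log2 difference 0.44, SE 0.09, adjusted p = 0.000691 with the empty vector, and 0.34, SE 0.09, adjusted p = 0.00973 with EWS-FLI1), so the construct and its level cannot be told apart below. FLI1 RNA, at most 2 counts in any library without EWS-FLI1, reached 1759 ± 100 CPM with no ARID1A, 3568 ± 151 with WT and 1897 ± 13.2 with ΔIDR1b, so the EWS-FLI1 dose differed between states too. Of 7 marker genes of the parent line, 6 were above 1 CPM (summed level of the list 201 to 235 CPM) and NEFM was not. The summed markers of blood cells (4 genes, 3.79 to 7.64 CPM), endothelium (3 genes, up to 1.05 CPM) and fibroblasts (4 genes, 1.52 to 4.48 CPM) were low, and their part in the results was not tested. All adjusted p-values are from edgeR's quasi-likelihood test with Benjamini-Hochberg adjustment over 20377 genes, and a gene is called at an adjusted p under 0.05. Where libraries are said to lie apart, this only describes them. With 2 libraries per group such separation is common without any difference, and its share over all genes was not counted.

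Promoter windows of these genes were searched for the TEAD core and other motifs, and no sites farther away were searched. RefSeq windows of 300 bases (GRCh38.p14, 250 bases before to 50 after a start site) were found for 8 of the 10 genes, 16 windows in all, with none for TEAD1 and TEAD4. Both strands were searched for 3 motifs. The TEAD core was searched as GGAATG. The AP-1 motif, of a factor that often binds beside TEAD, was searched as TGANTCA. The third, GGAAGGAA, is a pair of the repeats that EWS-FLI1 is known to bind. The first and the third share their first 4 letters, so they can overlap. GGAATG was present in 1 window each of LATS2, AMOTL2, AJUBA, YAP1, ANKRD1 and AXL, 6 of 16 windows, against 14% of all 35116 windows. ANKRD1 held 2 matches in its single window (2 or more occur in 1.37% of windows), 220 and 128 bases before the start site, with a TGANTCA between them at 195 bases. That stretch reads TGATTCA, with T at the open position N. TGANTCA occurs in 7.7% of windows and GGAAGGAA in 3.7%. GGAAGGAA was found in the windows of YAP1 (2 matches) and ANKRD1 (1 match). The 5 windows below are those of the target genes that moved most, of the feedback genes LATS2 and AMOTL2, and of CCN2 (3 GGAATG matches), whose response differed from that of ANKRD1. They read 5′ to 3′ on the gene's strand, with the TEAD core in capitals on either strand, and lie at chr10:90921038-90921337 (ANKRD1, minus strand), chr19:41218973-41219272 (the upstream of 2 AXL starts, plus strand), chr13:21061537-21061836 (LATS2, minus), chr3:134374398-134374697 (the downstream of 2 AMOTL2 starts, minus) and chr6:131951323-131951622 (CCN2, minus).
ANKRD1: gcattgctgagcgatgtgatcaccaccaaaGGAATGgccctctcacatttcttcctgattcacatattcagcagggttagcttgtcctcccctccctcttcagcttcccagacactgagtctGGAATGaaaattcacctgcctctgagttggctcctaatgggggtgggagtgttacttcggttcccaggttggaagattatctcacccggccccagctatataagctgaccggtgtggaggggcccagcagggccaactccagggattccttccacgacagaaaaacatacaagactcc
AXL: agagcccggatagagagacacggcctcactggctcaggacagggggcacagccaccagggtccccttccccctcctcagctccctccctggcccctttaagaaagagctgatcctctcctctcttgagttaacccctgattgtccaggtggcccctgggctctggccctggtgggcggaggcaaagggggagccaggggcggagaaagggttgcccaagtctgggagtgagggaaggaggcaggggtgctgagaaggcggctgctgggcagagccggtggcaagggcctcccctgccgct
LATS2: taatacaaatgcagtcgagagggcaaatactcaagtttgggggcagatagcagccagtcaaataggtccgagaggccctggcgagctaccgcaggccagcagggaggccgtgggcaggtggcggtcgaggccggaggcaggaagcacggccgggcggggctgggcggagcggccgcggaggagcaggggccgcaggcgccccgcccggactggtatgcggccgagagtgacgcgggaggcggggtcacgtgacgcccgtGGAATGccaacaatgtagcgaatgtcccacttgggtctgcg
AMOTL2: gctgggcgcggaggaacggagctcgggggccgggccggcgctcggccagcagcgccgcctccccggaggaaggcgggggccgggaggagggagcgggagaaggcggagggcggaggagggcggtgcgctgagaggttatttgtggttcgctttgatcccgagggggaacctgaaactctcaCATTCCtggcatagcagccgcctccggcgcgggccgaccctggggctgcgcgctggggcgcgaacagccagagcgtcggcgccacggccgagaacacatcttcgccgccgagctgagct
CCN2: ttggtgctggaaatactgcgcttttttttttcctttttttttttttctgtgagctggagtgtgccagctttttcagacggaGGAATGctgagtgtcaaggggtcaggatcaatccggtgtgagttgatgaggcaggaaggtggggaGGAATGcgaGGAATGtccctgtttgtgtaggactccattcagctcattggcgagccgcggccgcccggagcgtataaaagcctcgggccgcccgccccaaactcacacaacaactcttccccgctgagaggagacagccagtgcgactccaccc
The AXL window printed holds no match, and the other AXL window (chr19:41226505-41226804) holds 1. A match is a run of letters and not a measured binding site.

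Restoring ARID1A moved the 2 target genes most. ANKRD1 was 4.50- to 6.85-fold higher with WT or ΔIDR1b than with no ARID1A, with or without EWS-FLI1, and AXL was 1.51- to 3.75-fold higher, called in 3 of those 4 comparisons. TEAD1 was about 1.3-fold higher in all 4 of those comparisons. AJUBA was higher and VGLL4 lower than with no ARID1A in the ΔIDR1b cells, and AJUBA was also higher with ΔIDR1b than with WT. EWS-FLI1 itself moved none of the 10 genes past the threshold in any ARID1A state.

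Against no ARID1A with the empty vector, WT raised 5 of the 10 genes (YAP1, WWTR1, TEAD1, ANKRD1, AXL) and lowered none, with a median log2 change over the 10 of 0.33 against -0.01 over all genes. In that comparison 11.7% of all tested genes were called, 6.5% higher and 5.19% lower. With EWS-FLI1 in both arms, WT raised 3 (TEAD1, TEAD4, ANKRD1), beside 18.1% of all genes called, 9.72% higher and 8.36% lower. ΔIDR1b against no ARID1A raised 4 (AJUBA, TEAD1, ANKRD1, AXL) and lowered VGLL4, in empty-vector cells (33.3% of all genes called, 16.4% higher and 16.8% lower) and in EWS-FLI1 cells (35.9% called, 18.1% higher and 17.9% lower). The 5 with WT and the empty vector became 3 with upper-quartile scaling or no filter on low counts, and 2 without repeat 2 of no ARID1A or of WT. ΔIDR1b against WT raised AJUBA with the empty vector (24.5% of all genes called, 11.1% higher and 13.4% lower) and AJUBA and AXL with EWS-FLI1 (18.6% called, 8.48% higher and 10.1% lower). With upper-quartile scaling the share of higher genes among all called genes went from 55.6 to 39.4% for WT against no ARID1A with the empty vector, from 53.8 to 42.2% for the same with EWS-FLI1, from 45.4 to 56.1% for ΔIDR1b compared with WT in empty-vector cells, and from 45.6 to 53.4% for the latter in EWS-FLI1 cells. No called change of the 10 genes turned direction under any scaling.

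**Figure D1:**
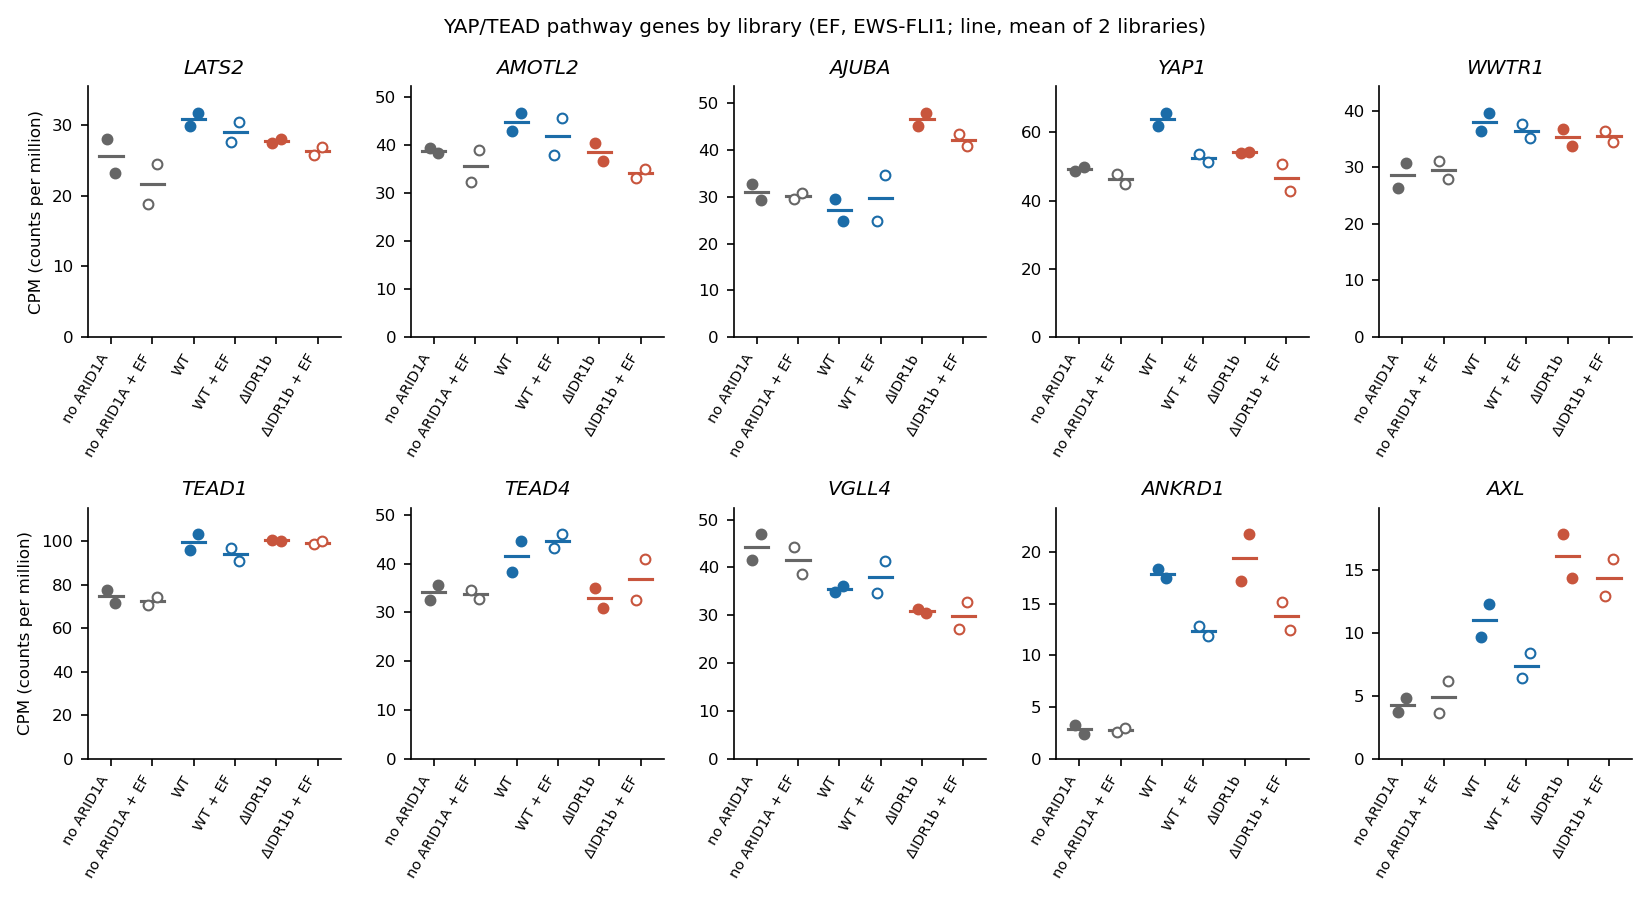
CPM (y axis, from 0) of the 10 genes in each of the 12 libraries, by ARID1A state (colour) and vector (filled, empty vector; open, with EWS-FLI1, EF), with lines at the mean of 2 libraries. The ANKRD1 libraries with no ARID1A lie between 2.39 and 3.27 CPM, all below the other 8, which lie between 11.9 and 21.7 CPM.

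LATS2, the kinase that phosphorylates YAP and TAZ and is itself a YAP target, changed little. Repeats 1 and 2 with the empty vector stood at 28 and 23.2 CPM with no ARID1A, at 29.9 and 31.8 with WT and at 27.5 and 28 with ΔIDR1b. In the EWS-FLI1 libraries it stood at 18.8 and 24.5 with no ARID1A, at 27.6 and 30.5 with WT and at 25.8 and 27.0 with ΔIDR1b. Both WT libraries were above both libraries with no ARID1A under either vector. The largest difference, WT against no ARID1A with EWS-FLI1, was 0.42 on the log2 scale (SE 0.15) and just missed the threshold (adjusted p = 0.0517). It passed with repeats paired within each vector (adjusted p = 0.0193), without repeat 2 of no ARID1A with EWS-FLI1 (0.0399) and without repeat 1 of WT with EWS-FLI1 (0.037).

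AMOTL2, an angiomotin-like protein that binds YAP and holds it in the cytoplasm, had the narrowest range of the 10 genes, 0.39 on the log2 scale between its highest and lowest group means. Its 12 libraries lay between 32.3 and 46.7 CPM, and no 2 neighbouring groups in the order of levels were apart. The order ran from ΔIDR1b with EWS-FLI1 (34.1 ± 1.35 CPM, SD, n = 2) up to WT with the empty vector (44.9 ± 2.61). AMOTL2 was called in none of the 13 comparisons. Its difference between ΔIDR1b and WT with EWS-FLI1 was -0.30 (95% interval -0.57 to -0.02, adjusted p = 0.124). That difference was called only when repeat 1 of WT with EWS-FLI1 was left out (adjusted p = 0.0411).

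AJUBA, a LIM protein that inhibits LATS kinases, was highest in the ΔIDR1b cells. In empty-vector cells it stood at 32.8 and 29.2 CPM with no ARID1A, 29.5 and 24.8 with WT, and 45.2 and 48 with ΔIDR1b. The EWS-FLI1 libraries stood at 29.5 and 30.9 with no ARID1A, 24.8 and 34.7 with WT, and 43.5 and 40.9 with ΔIDR1b. All 4 ΔIDR1b libraries lay above all 8 others, and the 4 other groups overlapped each neighbour in the order. In empty-vector cells ΔIDR1b gave a 1.71-fold rise over WT (log2 0.78, SE 0.15, adjusted p = 0.000184), and over no ARID1A a 1.5-fold rise (log2 0.59, SE 0.15, adjusted p = 0.00201). With EWS-FLI1 the rises were 1.42-fold against WT (adjusted p = 0.0146) and 1.40-fold against no ARID1A (adjusted p = 0.00986). The first of these was lost without repeat 1 of WT or of ΔIDR1b with EWS-FLI1 (adjusted p 0.109 to 0.24) and when only the libraries compared were fitted (0.0913). The second was lost without repeat 1 of no ARID1A or of ΔIDR1b with EWS-FLI1 (0.0744 to 0.0857). WT against no ARID1A differed by -0.19 with the empty vector (95% interval -0.49 to 0.11, adjusted p = 0.454) and by -0.02 with EWS-FLI1 (-0.33 to 0.29, adjusted p = 0.948).

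YAP1, the coactivator that gives the pathway its name, was highest with WT and the empty vector. Its empty-vector libraries stood at 48.6 and 49.9 CPM with no ARID1A, 61.8 and 65.7 with WT and 53.9 and 54.3 with ΔIDR1b. The libraries with EWS-FLI1 held 47.7 and 44.9 CPM, then 53.6 and 51.2, and then 50.8 and 42.7, in the same order of states. The WT libraries with the empty vector lay above the other 10, and the WT libraries with EWS-FLI1 overlapped none of the groups beside them in the order. WT against no ARID1A with the empty vector was 1.29-fold (log2 0.37, SE 0.12, adjusted p = 0.0379). This call was lost without any 1 of 8 libraries, the repeats of no ARID1A under both vectors and of WT and ΔIDR1b with the empty vector (adjusted p 0.0539 to 0.195), and with upper-quartile scaling or no filter on low counts (0.0588 to 0.0925). With EWS-FLI1 in both arms the difference was 0.18 (95% interval -0.07 to 0.43, adjusted p = 0.342). Exons of YAP1 share 10.1% of their bases with 2 other genes, which had at most 16 counts in a library. Those counts leave out fragments that touch several genes, so the effect of the sharing on YAP1 is not known.

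WWTR1, which encodes TAZ, was lowest in the cells with no ARID1A. Libraries with the empty vector gave 26.4 and 30.8 CPM with no ARID1A, 36.3 and 39.6 with WT and 36.7 and 33.8 with ΔIDR1b. For EWS-FLI1 the values were 31.1 and 28, then 37.6 and 35.1, and then 36.5 and 34.5 in the same order. All 4 libraries with no ARID1A were below all 8 others, which overlapped among themselves. The rise with WT and the empty vector was 1.33-fold (log2 0.41, SE 0.14) at an adjusted p of 0.0468. It was called in only 4 of 20 alternative analyses, which included a log2 limit of 1 that it could not pass. It was lost without any 1 of 10 libraries, all but the 2 of WT with EWS-FLI1 (adjusted p 0.0532 to 0.351), and in 5 other settings (0.0509 to 0.101), among them the replicate block over all libraries. The other 3 comparisons with no ARID1A gave log2 differences of 0.26 to 0.30, none called (adjusted p 0.0885 to 0.138). WWTR1 shares 9.1% of its exonic bases with the antisense gene WWTR1-AS1, which had at most 19 counts in a library. The counting used no strand and left out fragments that touch both genes, so the effect of the sharing on WWTR1 is not known. Per kilobase of exon, YAP1 was above WWTR1 in every library, by 1.64- to 2.44-fold.

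TEAD1, a DNA-binding factor that recruits YAP and TAZ, was called in all 4 comparisons of restored ARID1A with no ARID1A. Its CPM with the empty vector was 77.8 and 71.8 with no ARID1A, 96.0 and 103.2 with WT and 100.6 and 100.2 with ΔIDR1b. Its CPM with EWS-FLI1 was 70.5 and 74.6, 97.0 and 91.0, and 98.7 and 100 for the same states. The 4 libraries with no ARID1A were below all 8 others. WT gave a 1.33-fold rise with the empty vector (log2 0.41, SE 0.11, adjusted p = 0.00913) and a 1.30-fold rise with EWS-FLI1 (log2 0.37, SE 0.11, adjusted p = 0.0126). ΔIDR1b gave a 1.34-fold rise with the empty vector (log2 0.42, SE 0.11, adjusted p = 0.00215) and a 1.37-fold rise with EWS-FLI1 (log2 0.45, SE 0.11, adjusted p = 0.00107). The WT call with the empty vector was lost without repeat 2 of no ARID1A or of WT (0.0858 to 0.155), the WT call with EWS-FLI1 without either repeat of no ARID1A with EWS-FLI1 (0.0631 to 0.153) or when only the libraries compared were fitted (0.0747), and the ΔIDR1b call with the empty vector without repeat 2 of no ARID1A (0.0595). ΔIDR1b and WT differed by 0.01 with the empty vector (95% interval -0.20 to 0.23) and by 0.08 with EWS-FLI1 (-0.13 to 0.29).

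Per kilobase of exon TEAD4 RNA was the most abundant of the TEAD family, though in CPM TEAD1 was above it in every library. TEAD4 was highest with WT. The empty-vector libraries stood at 32.6 and 35.6 CPM with no ARID1A, 38.4 and 44.7 with WT and 34.9 and 31.0 with ΔIDR1b. In cells with EWS-FLI1 it stood at 34.7 and 32.7, at 43.1 and 46, and at 32.6 and 40.9. The WT libraries were above those of both other states under each vector, but no 2 neighbouring groups in the order of levels were apart. WT with EWS-FLI1 gave a 1.32-fold rise over no ARID1A (log2 0.40, SE 0.14, adjusted p = 0.0393). This rise was called in 10 of 20 alternative analyses, which included a log2 limit of 1 that it could not pass. It was lost without any 1 of 6 libraries, both repeats of no ARID1A under each vector, repeat 2 of WT with EWS-FLI1 and repeat 1 of ΔIDR1b with the empty vector (adjusted p 0.0502 to 0.229), and in 3 other settings (0.0557 to 0.0917). ΔIDR1b against WT with the empty vector was -0.33 (SE 0.14, adjusted p = 0.075), and with repeats paired within each vector that difference passed (-0.33, adjusted p = 0.0356). It also passed without either repeat of WT with EWS-FLI1 (0.0394 and 0.04) and when only the libraries compared were fitted (0.045).

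VGLL4, a cofactor that competes with YAP for TEAD binding, had its lowest levels with ΔIDR1b. Values in empty-vector cells were 41.6 and 46.9 CPM with no ARID1A, 34.7 and 36.2 with WT and 31.2 and 30.5 with ΔIDR1b. Values with EWS-FLI1 were 44.2 and 38.7, 34.7 and 41.2, and 27.2 and 32.7 for the same states. The 4 ΔIDR1b libraries were below all 8 others. ΔIDR1b fell by 0.52 on the log2 scale against no ARID1A with the empty vector (SE 0.14, adjusted p = 0.00366) and by 0.47 with EWS-FLI1 (SE 0.14, adjusted p = 0.00795). The first call was lost without repeat 2 of no ARID1A (0.0739), and the second without repeat 1 of no ARID1A or of ΔIDR1b, both with EWS-FLI1 (0.128 to 0.151). WT against no ARID1A gave -0.32 (SE 0.14, adjusted p = 0.129) with the empty vector and -0.13 (SE 0.14, adjusted p = 0.576) with EWS-FLI1. ΔIDR1b against WT with EWS-FLI1 was -0.34 (adjusted p = 0.0803), and it passed with repeats paired within each vector (0.0367) and without repeat 1 of WT with EWS-FLI1 (0.0291). VGLL4 shares 23.8% of its exonic bases with other genes, among them ATG7, a gene on which autophagy depends. ATG7 was called in none of these 6 comparisons (log2 differences -0.07 to 0.30, adjusted p 0.198 to 0.852). Fragments that touch several genes were not counted, so this does not show whether the shared bases affected VGLL4.

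**Figure D2:**
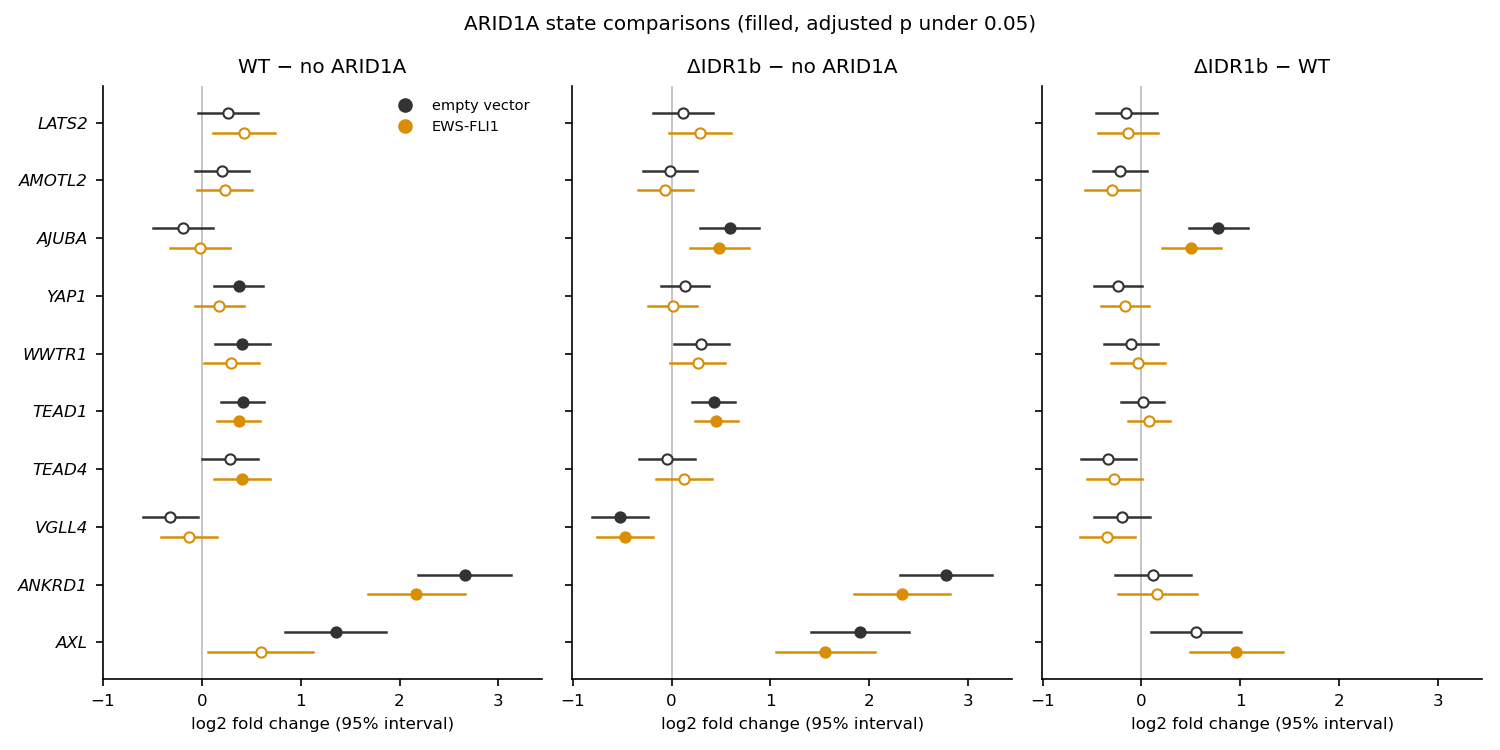
Log2 fold change (x axis) of the 10 genes between ARID1A states, with 95% intervals, for the empty vector (dark) and EWS-FLI1 (orange); filled points passed an adjusted p of 0.05. ANKRD1 lies far to the right in the comparisons with no ARID1A, as does AXL except for WT with EWS-FLI1 (0.60, open). AJUBA is filled in both panels with ΔIDR1b, and VGLL4 is filled to the left of 0 in the comparison of ΔIDR1b with no ARID1A.

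The 4 TEAD genes were set side by side per kilobase of exon, without a test, because they share the sites they bind. Their summed level lay between 35.7 and 40.0 CPM per kb in the 4 libraries with no ARID1A, between 46.8 and 53.5 in those with WT and between 43.4 and 46.8 in those with ΔIDR1b. TEAD4 held the largest share in every library (31.4 to 40.5%), and TEAD1 held 16.6 to 21.6%. These shares rest on the length of all annotated exons, 2275 bases for TEAD4 and 10700 for TEAD1, and not on that of the transcripts expressed. In CPM, without this division, TEAD1 was above TEAD4 in every library. TEAD2 was called higher than with no ARID1A with EWS-FLI1, by 0.70 on the log2 scale with WT (SE 0.15, adjusted p = 0.00084) and by 0.60 with ΔIDR1b (SE 0.15, adjusted p = 0.00154). Of the other 5 listed TEAD and cofactor genes, 4 were tested, and TEAD2 was the only one called in any ARID1A state comparison.

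**Figure D3:**
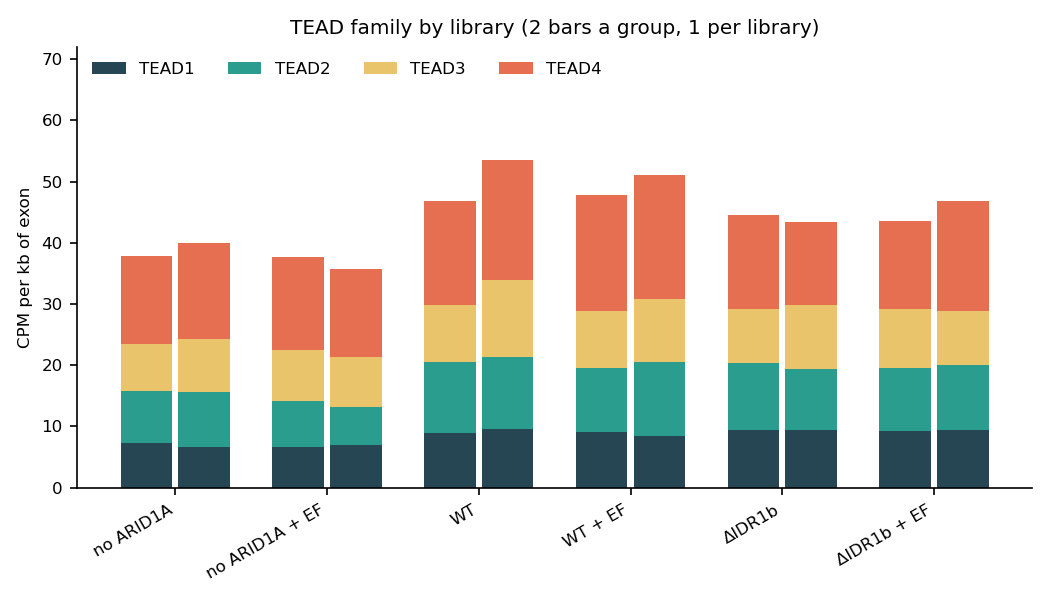
CPM per kilobase of exon (y axis, from 0) of TEAD1 to TEAD4, stacked, with 1 bar per library and 2 bars per group (EF, EWS-FLI1). The bars with no ARID1A end between 35.7 and 40.0 and those with WT between 46.8 and 53.5, with TEAD4 the largest segment in each.

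ANKRD1, an ankyrin-repeat protein of muscle sarcomeres and nuclei that is widely used as a readout of YAP activity, had the widest range of the set, 2.75 on the log2 scale, wider than in 97.4% of all tested genes. The libraries with the empty vector held 3.27 and 2.39 CPM with no ARID1A (44 and 32 counts), 18.4 and 17.5 with WT and 17.2 and 21.7 with ΔIDR1b. Those with EWS-FLI1 held 2.56 and 2.94 with no ARID1A (30 and 34 counts), 12.9 and 11.9 with WT and 15.2 and 12.4 with ΔIDR1b. Every library with restored ARID1A was above every library without it. The rise over no ARID1A was 6.31-fold for WT (log2 2.66, SE 0.23, adjusted p = 4.42e-10) and 6.85-fold for ΔIDR1b (log2 2.78, SE 0.23, adjusted p = 2.07e-11) with the empty vector. With EWS-FLI1 it was 4.50-fold for WT (log2 2.17, SE 0.24, adjusted p = 5.92e-08) and 5.02-fold for ΔIDR1b (log2 2.33, SE 0.24, adjusted p = 2.19e-09). All 4 calls held in each of 20 alternative analyses. ΔIDR1b and WT differed by 0.12 with the empty vector (95% interval -0.27 to 0.50, adjusted p = 0.697) and by 0.16 with EWS-FLI1 (-0.24 to 0.56, adjusted p = 0.619), which leaves room for differences of either sign up to those bounds.

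AXL, a receptor tyrosine kinase and YAP target, was lowest with no ARID1A, intermediate with WT and highest with ΔIDR1b. Its level with the empty vector was 3.72 and 4.86 CPM with no ARID1A, 9.67 and 12.3 with WT and 17.8 and 14.4 with ΔIDR1b. Its level with EWS-FLI1 was 3.67 and 6.14 CPM, 6.40 and 8.41, and 13 and 15.9 for the same states. The 4 libraries with no ARID1A were the lowest, the 4 with WT came next and the 4 with ΔIDR1b were the highest, with no overlap between states. With the empty vector WT gave a 2.56-fold rise over no ARID1A (log2 1.36, SE 0.25, adjusted p = 0.00037) and ΔIDR1b a 3.75-fold rise (log2 1.91, SE 0.25, adjusted p = 2.37e-07). With EWS-FLI1 the ΔIDR1b rise was 2.94-fold (log2 1.55, SE 0.25, adjusted p = 6.98e-06), and these 3 calls held in each of 20 alternative analyses. WT against no ARID1A with EWS-FLI1 was 0.60 (SE 0.26, adjusted p = 0.11), and it was called without repeat 2 of no ARID1A (log2 1.02, adjusted p = 0.0459) or repeat 1 of WT (log2 0.78, adjusted p = 0.0472), both with EWS-FLI1. ΔIDR1b was 1.94-fold above WT with EWS-FLI1 (log2 0.96, SE 0.23, adjusted p = 0.00362), a call lost without repeat 2 of ΔIDR1b with EWS-FLI1 (0.0548). With the empty vector the same difference was 0.55 (SE 0.22, adjusted p = 0.0701). It passed with repeats paired within each vector (0.56, adjusted p = 0.027), without either repeat of WT with EWS-FLI1 (0.0373 to 0.0382), with upper-quartile scaling (0.044) and when only the libraries compared were fitted (0.0291).

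Per kilobase of exon, AXL and ANKRD1 were the lowest of the 10 genes with no ARID1A and the empty vector, and ANKRD1 was second to TEAD4 with ΔIDR1b and the empty vector. With ΔIDR1b and EWS-FLI1 its mean, 7.73 ± 1.10 CPM per kb (SD, n = 2), was below those of TEAD4 (16.2 ± 2.58) and TEAD1 (9.29 ± 0.09). With no ARID1A and the empty vector ANKRD1 stood at 1.58 ± 0.35 CPM per kb (SD, n = 2) and AXL at 0.84 ± 0.16, below YAP1 at 7.80 ± 0.14. With ΔIDR1b and the empty vector ANKRD1 stood at 10.9 ± 1.80, AXL at 3.14 ± 0.48 and YAP1 at 8.57 ± 0.05.

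EWS-FLI1 against the empty vector gave no call among the 10 genes with no ARID1A, with WT, with ΔIDR1b or averaged over the 3 states. Few genes of any kind were called there: 0.0442% of all tested genes with no ARID1A, 0.221% with WT, 0.172% with ΔIDR1b and 0.466% on average. At an unadjusted p under 0.05 the counts of the 10 genes were 0, 3, 1 and 2 in that order, beside 3.16, 6.53, 5.45 and 7.9% of all genes. No alternative analysis, DESeq2 included, called any. Among these, the fit with repeats paired within each vector compared the vectors at repeat 1 only, so it is not a paired test of this effect. The shares of all genes called also depend on the spread between repeats. Relative to sampling noise it was largest for WT with EWS-FLI1 (chi-square per degree of freedom 12.1, against 3.02 to 6.13 in the other groups). These shares rose when either library of that group was left out, so they do not measure how many genes EWS-FLI1 moved. The largest differences among the 10 genes were those of the 2 target genes. ANKRD1 differed by -0.53 with WT (SE 0.19, adjusted p = 0.546) and by -0.49 with ΔIDR1b (SE 0.19, adjusted p = 0.759), and both libraries with EWS-FLI1 lay below both with the empty vector in each state. With no ARID1A its difference was -0.04 (95% interval -0.62 to 0.53, adjusted p = 1). AXL differed by -0.57 with WT (SE 0.24, adjusted p = 0.667), without overlap between the libraries. Such separation says little here: TEAD1 with ΔIDR1b was also without overlap, at a difference of -0.01. YAP1 differed by -0.28 with WT (SE 0.12, adjusted p = 0.673) and by -0.19 on average (SE 0.07, adjusted p = 0.362). The average 95% intervals of WWTR1 (-0.16 to 0.16) and TEAD1 (-0.17 to 0.08) hold no change larger than 0.17 in either direction.

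The effect of EWS-FLI1 on the 10 genes was not shown to depend on the ARID1A state. None of the 3 tests of the difference between states called any of them, beside 0.0245% of all genes for WT minus no ARID1A, 0.0196% for ΔIDR1b minus no ARID1A and 0% for ΔIDR1b minus WT. AXL had the largest such difference, for WT minus no ARID1A (log2 difference -0.76, 95% interval -1.50 to -0.02, adjusted p = 1), and it was the only one of the 30 values with an unadjusted p under 0.05. Over all genes 4.34, 3.45 and 3.64% were under that limit in the 3 tests, so 1 of 30 is near the background. These intervals are wide for ANKRD1 (-1.19 to 0.21 for the same difference).

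**Figure D4:**
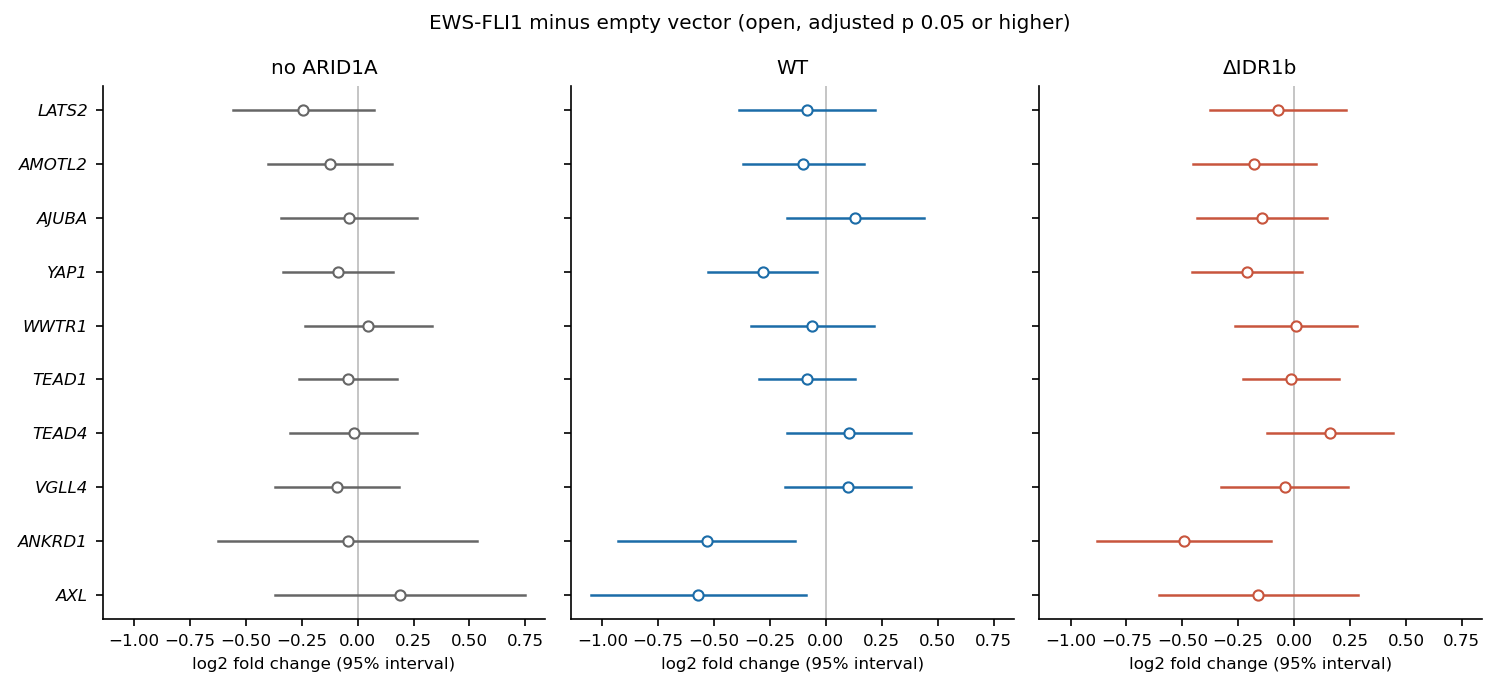
Log2 fold change (x axis) of the 10 genes for EWS-FLI1 minus empty vector in each ARID1A state, with 95% intervals; open points did not pass an adjusted p of 0.05. All 30 points are open, with ANKRD1 at -0.53 and AXL at -0.57 the lowest in the WT panel.

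The other listed YAP/TEAD targets split. Of 18 genes, 17 were tested, and IGFBP3 did not pass the filter. WT against no ARID1A raised 6 and lowered 1 with the empty vector (median log2 0.31 against -0.01 over all genes, of which 11.7% were called) and raised 4 and lowered 1 with EWS-FLI1 (0.30 against -0.02, with 18.1% of all genes called). ΔIDR1b against no ARID1A raised 7 and lowered 3 with the empty vector (0.50 against 0.00, with 33.3% of all genes called) and raised 6 and lowered 3 with EWS-FLI1 (0.37 against 0.02, with 35.9% called). FJX1, the human counterpart of Drosophila four-jointed, followed ANKRD1 and AXL: it rose 2.22-fold with WT (adjusted p = 0.000153) and 3.03-fold with ΔIDR1b (adjusted p = 7.71e-08) with the empty vector.

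A group of 3 targets went opposite ways with the 2 constructs. CCN1, a matricellular protein and classical YAP target, stood at 347 ± 8.87 CPM with no ARID1A, 570 ± 52.1 with WT and 126 ± 16.1 with ΔIDR1b (SD, n = 2, empty vector). It rose by 0.72 with WT (SE 0.10, adjusted p = 1.3e-05) and fell by 1.46 with ΔIDR1b (SE 0.11, adjusted p = 1.35e-12). CCN2, its close relative with 3 GGAATG matches in the window printed above, rose by 1.11 with WT (SE 0.23, adjusted p = 0.00134) and fell by 0.89 with ΔIDR1b (SE 0.26, adjusted p = 0.00706). GADD45A, a stress-induced growth arrest gene, rose by 0.67 with WT (SE 0.10, adjusted p = 1.41e-05) and fell by 0.93 with ΔIDR1b (SE 0.10, adjusted p = 6.95e-09). ΔIDR1b against WT was therefore -2.18 for CCN1, -2.01 for CCN2 and -1.60 for GADD45A on the log2 scale (adjusted p 3.86e-16 to 3.17e-07), where ANKRD1 gave 0.12 and AXL 0.55. With EWS-FLI1 the signs were the same, and the CCN2 difference with ΔIDR1b was not called there (log2 difference -0.33, SE 0.25, adjusted p = 0.334). These 3 genes were grouped after their values were seen. The comparisons share the libraries with no ARID1A. On average over the 3 states EWS-FLI1 lowered 2 of the 17 targets, beside 0.466% of all genes called. CCN1 fell by 0.50 (SE 0.06, adjusted p = 1.65e-06) and MYOF, a membrane repair protein, by 0.69 (SE 0.13, adjusted p = 0.00467). By state, 0 of the 17 were called with no ARID1A, 2 with WT and 1 with ΔIDR1b, beside 0.0442, 0.221 and 0.172% of all genes.

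**Figure D5:**
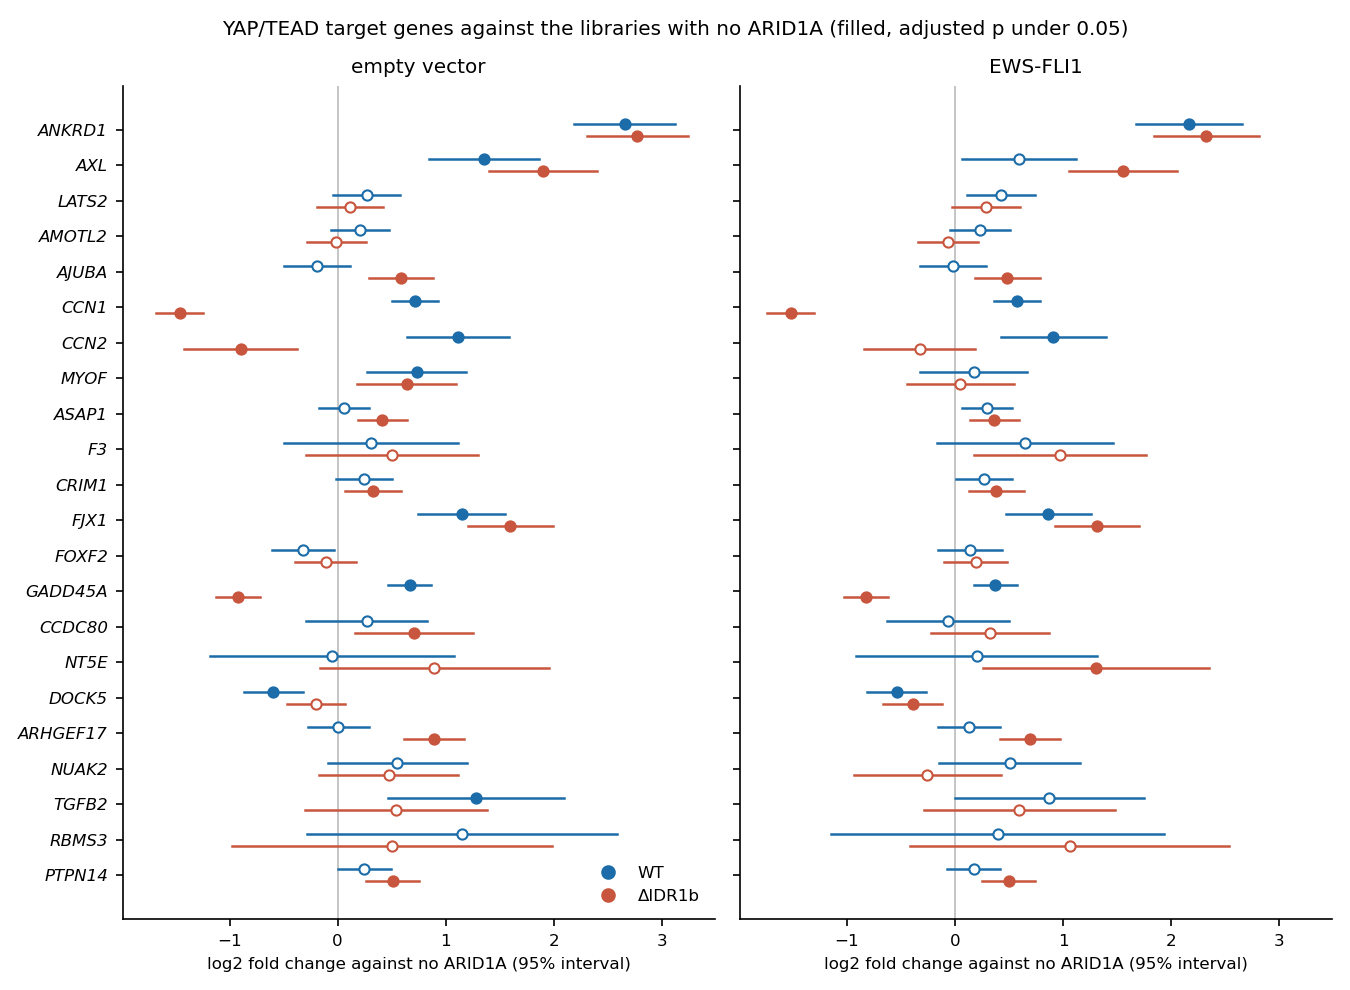
Log2 fold change (x axis) against no ARID1A for ANKRD1, AXL, LATS2, AMOTL2 and AJUBA (top) and the 17 other tested targets, with 95% intervals, for WT (blue) and ΔIDR1b (red), by vector; filled points passed an adjusted p of 0.05. ANKRD1, AXL and FJX1 lie to the right of 0 for both constructs, and CCN1, CCN2 and GADD45A lie to the right for WT and to the left for ΔIDR1b.

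Among 19 other upstream Hippo genes, all tested, WT against no ARID1A raised 3 in empty-vector cells (11.7% of all genes called) and 4 in EWS-FLI1 cells (18.1%) and lowered none. ΔIDR1b against no ARID1A raised 8 in empty-vector cells (33.3% of all genes called), and raised 10 and lowered 1 in EWS-FLI1 cells (35.9%). The counts with WT and the count of 8 are near these background shares, which hold calls in either direction. All of those calls were rises, and the genes called higher made up 6.5, 9.72 and 16.4% of all genes, in that order. This difference in direction was not tested. WWC1 (KIBRA), a scaffold that activates the LATS kinases, rose 1.47-fold with WT (adjusted p = 0.00269) and 1.60-fold with ΔIDR1b (adjusted p = 6.39e-05) with the empty vector. TAOK3 (1.70-fold, adjusted p = 0.000703) and TAOK2 (1.55-fold, adjusted p = 3.42e-05), kinases at the top of the cascade, rose with ΔIDR1b and the empty vector, as did PTPN14, a phosphatase that restrains YAP (1.42-fold, adjusted p = 0.0011). SAV1, the scaffold of the MST kinases and the single fall, named here after its value was seen, fell by 0.35 with ΔIDR1b and EWS-FLI1 (SE 0.11, adjusted p = 0.00954), and it shares 31.9% of its exonic bases with ATL1. FRMD6, an upstream activator of the cascade, was lower with ΔIDR1b than with WT with the empty vector, where it fell by 0.59 (SE 0.15, adjusted p = 0.00456).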

How the data were processed

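PolyA RNA of 12 libraries was measured, 2 in each of 6 groups taken from the sample titles. Per the file headers, the authors counted read pairs per gene name with featureCounts 2.0.1 on exons of GENCODE release 41 (GRCh38, patch 13), requiring both ends, with no strand option and no counting of fragments with several places or genes; STAR is named in the submitters' processing notes, and its version is not given in the sources used here. The deposited values are raw fragment counts, with no normalization. Genes were kept by filterByExpr (minimum count 10, minimum total 15), which left 20377 genes and 99.79 to 99.87% of counts. Sizes were scaled by TMM, a 1-mean-per-group quasi-likelihood model was fitted to all 12 libraries in edgeR 4.0.16 (R 4.3.3, limma 3.58.1), and 13 contrasts were tested 2-sided with Benjamini-Hochberg adjustment, threshold 0.05; the pipeline was tested on simulated data. CPM uses TMM-scaled sizes, and CPM per kb divides by the length of all annotated exons of a gene, whichever transcripts are expressed. 95% intervals come from the standard error and the degrees of freedom of the fit.

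All 10 members were named. Of the other lists, at most 4 called genes of the largest change per list and comparison were named, with exceptions stated where they occur. The members and lists were chosen with earlier results of these data known. Genes named for a like pattern had the smallest root mean square difference of centred group-mean log2 CPM among genes of at least 5 CPM.

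Alternatives were DESeq2 1.42.0 size factors and its Wald test, upper-quartile scaling, no low-count filter, fitting only the compared libraries, a log2 limit of 1, leaving out each library, and the replicate block, all run for the 10 members. Repeat numbers pair libraries within a vector by the values only (deviations over 10695 genes: r 0.104 to 0.194 with the empty vector, 0.153 to 0.412 with EWS-FLI1, none positive across vectors). The block within vector is printed beside results whose call it changed. For EWS-FLI1 against the empty vector this block compared the vectors at repeat 1 only, so it is not a paired test there. Its values for those comparisons still enter the totals of sign changes given below.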

Additional observations from a re-analysis of the deposited data

How the results depend on the processing

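Of 21 called differences of the 10 genes, 10 held in every alternative that kept the adjusted p rule and 11 were lost in at least one, and none turned direction. Of 109 uncalled ones, 6 were called in at least one, and 47 changed sign while uncalled. For WT against no ARID1A with the empty vector, the 5 called genes became 3 with upper-quartile scaling, 3 with no filter on low counts and 2 with a log2 change of at least 1, and 2 to 5 with 1 library left out. With EWS-FLI1, the 3 became 1 when only the libraries compared were fitted, 1 with the log2 limit, and 1 to 5 with 1 library left out (1 without repeat 1 of no ARID1A and 5 without repeat 1 of WT, both with EWS-FLI1). ΔIDR1b against no ARID1A went from 5 to 2 with the log2 limit, under either vector, and to 3 to 5 with 1 library left out. ΔIDR1b against WT with the empty vector went from 1 to 2 with upper-quartile scaling, 3 with only the libraries compared, 0 with the log2 limit, and 1 to 3 with 1 library left out. With EWS-FLI1 it went from 2 to 1 with only the libraries compared, 0 with the log2 limit, and 1 to 3 with 1 library left out. The log2 limit removes calls and the left-out libraries remove samples by construction, but leaving out a library also added calls. The cause of these moves was not tested. Between-repeat spread relative to sampling noise (chi-square per degree of freedom) was 12.1 for WT with EWS-FLI1, against 3.02 to 6.13 in the other groups. Each gene had 1 estimate of spread over all 12 libraries, so that pair also entered comparisons that do not use it. With the replicate block, ΔIDR1b against WT with the empty vector gave 2 called genes over all libraries and 3 within vector, and beyond the changes given beside LATS2, WWTR1, TEAD4, VGLL4 and AXL the paired fits changed no other call. The 2 libraries a group and 30 to 71 counts a library for ANKRD1 and AXL with no ARID1A limit the precision of their folds.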

Other observations

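The genes whose group means moved most like those of the 3 widest-ranging members were found among 12290 genes by the root mean square difference of centred log2 CPM over the 6 groups, a description with no test. Nearest to ANKRD1 was INHBA, the activin A subunit gene (difference 0.15 against a median of 1.15 over all genes compared). INHBA stood at 3.35 and 1.57 CPM with no ARID1A and the empty vector, 16.6 and 12.9 with WT, and 17.6 and 20.1 with ΔIDR1b. With EWS-FLI1 it stood at 2.13 and 1.73, at 13.9 and 9.63, and at 13.2 and 11.8, so every library with restored ARID1A was above every library without it. ARC (0.37), an immediate early gene of neurons, and MT-TY (0.38), a mitochondrial tyrosine tRNA, came next.

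Nearest to AXL were 3 interferon-induced genes, DDX60 (0.13), IFI27 (0.13) and ISG20 (0.15), against a median of 0.72. DDX60, an antiviral helicase-like protein, stood at 11.2 and 12.3 CPM with no ARID1A, 24.3 and 27.3 with WT, and 38.6 and 40.0 with ΔIDR1b, with the empty vector. ISG20, an exonuclease, stood at 8.77 and 7.55, at 16.0 and 18.1, and at 32.1 and 26.7 in the same order.

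Nearest to AJUBA were GLI2 (0.04), a transcription factor of the Hedgehog pathway, IGDCC4 (0.05) and PHTF1 (0.05), against a median of 0.34. GLI2 stood at 18.4 and 21.3 CPM with no ARID1A, 18.9 and 17.9 with WT, and 30.3 and 30.9 with ΔIDR1b, with the empty vector.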
